A study of Mus musculus with 67 samples.

Results

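The genes described here are 46 interferon-responsive genes, out of 55450 genes counted in 67 mouse livers. They were chosen by name from knowledge of the pathway, with earlier results of these data known. Of the 46, 34 are known mainly as targets of type I interferon and 12 as targets of interferon-gamma. All 46 passed the filter on low counts. The study fed wild-type (WT) mice and mice of a Sestrin double knockout line, whose genotype label names Sesn2 and is written DKO below, with a control food or one free of leucine. Livers were taken after 24 hours (day 1) or 8 days (day 8), and each of the 67 livers came from a separately numbered mouse. Strain, age and sex are not given in the labels, and neither is the allele or its extent. The WT groups held 7 control and 12 leucine-free livers of day 1, and 5 and 6 of day 8. The DKO groups held 8 control and 18 leucine-free livers of day 1, and 5 and 6 of day 8.

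Interferons are secreted signals of virus infection. Type I interferons bind the receptor chains IFNAR1 and IFNAR2, and the kinases on these chains phosphorylate STAT proteins, STAT2 among them, which join IRF9 and bind a DNA element called the interferon-stimulated response element (ISRE). Interferon-gamma acts through a separate receptor and the gamma-activated site (GAS), while IRF1 carries part of the gamma response to ISRE sequences. In liver these genes are transcribed at a low level without infection, both in hepatocytes and in resident macrophages (Kupffer cells).

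Total counts per library lay between 22814668 and 56916009. Sesn1 separated the genotypes without overlap, reading 9.24 to 22.2 CPM (counts scaled to the size of the library) in the 30 WT livers, against 3.49 to 7.67 CPM for the 37 of the DKO line. Sesn2, the gene in the genotype label, was not lower in DKO libraries (10.6 to 36.9 CPM) than in WT libraries (9.60 to 19.6 CPM). Counts summed over a gene do not tell whether some of its exons are missing. The summed level of 10 hepatocyte markers lay between 84891.3 and 147787.4 CPM in every library, so the defining genes of the labelled tissue were present.

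Short stretches upstream of 9 member genes are shown because they carry the element through which these genes are known to respond, and because the genes below differ in how they moved with diet. They are RefSeq sequence of GRCm38.p6, read 5′ to 3′ on the strand of the gene, and capitals mark each match to the ISRE core TTTCNNTTTC on either strand (GAAANNGAAA when read from the other strand).
Isg15, chr4:156200855-156200916, minus strand: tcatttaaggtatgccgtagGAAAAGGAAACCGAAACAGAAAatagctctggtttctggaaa
Bst2, chr8:71537567-71537622, minus strand: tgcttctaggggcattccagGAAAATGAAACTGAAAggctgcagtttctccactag
Ifit1, chr19:34640765-34640833, plus strand: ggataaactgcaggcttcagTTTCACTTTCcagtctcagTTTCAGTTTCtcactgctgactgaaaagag
Ifit3, chr19:34583353-34583436, plus strand: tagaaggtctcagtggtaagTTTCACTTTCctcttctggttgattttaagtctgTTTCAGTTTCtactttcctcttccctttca
Rsad2, chr12:26456543-26456592, minus strand: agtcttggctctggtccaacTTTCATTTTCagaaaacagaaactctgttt
Oas3, chr5:120777705-120777754, minus strand: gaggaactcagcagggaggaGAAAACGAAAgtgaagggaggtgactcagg
Igtp, chr11:58199502-58199551, plus strand: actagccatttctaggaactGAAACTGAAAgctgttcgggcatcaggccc
Gbp7, chr3:142530263-142530312, plus strand: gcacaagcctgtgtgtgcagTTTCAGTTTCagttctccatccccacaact
Stat2, chr10:128270256-128270305, plus strand: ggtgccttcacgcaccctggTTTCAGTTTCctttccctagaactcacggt

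Isg15 holds 3 matches that run into each other, the first starting 78 bases before the start site, and Bst2 holds a pair that starts 130 bases before it. Ifit1 has matches that start 104 and 85 bases before the start, and Ifit3 has them at 156 and 122 bases. In Stat2 the single match starts 222 bases before the start site. RefSeq start sites with a window of 250 bases before to 50 bases after them were matched for 32 of the 46 members, and 14 had none. Of the 32, 17 held at least 1 ISRE core. These were 11 of 23 type I targets (47.83%) and 6 of 9 interferon-gamma targets (66.67%), where 3.99% of 27025 genes held one in any window. The GAS letters TTCNNNGAA stood in 4 of the 23 type I targets (17.39%) and 4 of the 9 gamma targets (44.44%), against 9.55% of all genes. The 2 motifs overlapped in 1 member, Bst2. A match of letters is a description of the window, not a bound site.

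Levels differed widely among members. Per kilobase of exon, Bst2 (tetherin, which holds budding virus at the cell surface) had the highest mean level over the 67 libraries, 167.3 CPM per kb. It was followed by Ifi27 at 56.9 and Iigp1 at 51.5 CPM per kb. Mx1 at 0.615 and Oas3 at 0.398 CPM per kb lay at the other end. The interferon genes themselves were almost silent. Of 20 interferon genes examined, none reached the filter, Ifng had at most 10 counts in a library and a count in 34 of 67 libraries, and Ifnb1 had 1 count in 1 library.

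After 8 days without leucine most of these genes were lower in both genotypes. In WT livers 34 of the 46 members fell and none rose, where 2.87% of all 16908 genes tested fell and 2.38% rose (edgeR quasi-likelihood test with Benjamini-Hochberg adjusted p under 0.05). In DKO livers 40 fell and none rose, where 9.51% of all genes fell and 11.1% rose. The median log2 difference of the 46, leucine-free minus control, was -0.83 in WT and -0.90 in DKO livers, against 0.00 and 0.01 over all genes tested. The ranges of the 2 diets did not overlap for 26 members in WT and for 35 in DKO livers, against 2.98% and 5.57% of all genes with such a range on the lower side. All 34 members that fell in WT livers also fell in DKO livers, but the 2 comparisons are not independent looks at the members, which were chosen with earlier results known.

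The targets of type I interferon and those of interferon-gamma both took part. Of 34 type I targets, 27 fell in WT and 30 in DKO livers at day 8, with median log2 differences of -0.86 and -1.09. Among the 12 gamma targets 7 fell in WT and 10 in DKO livers, with medians of -0.73 and -0.81. For these counts and those by role below, 2.87% of all genes fell in WT and 9.51% in DKO livers at day 8. The mean log2(CPM + 0.5) of the type I targets was 4.24 to 4.53 in the 5 WT control livers and 3.43 to 3.99 in the 6 WT leucine-free livers. The DKO livers gave 4.37 to 4.64 on control food and 3.18 to 3.75 on leucine-free food. Neither genotype showed an overlap between diets on this measure. The gamma targets gave 5.06 to 5.52 against 4.47 to 5.02 in WT and 5.25 to 5.38 against 4.24 to 4.82 in DKO livers, again without overlap.

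**Figure D1:**
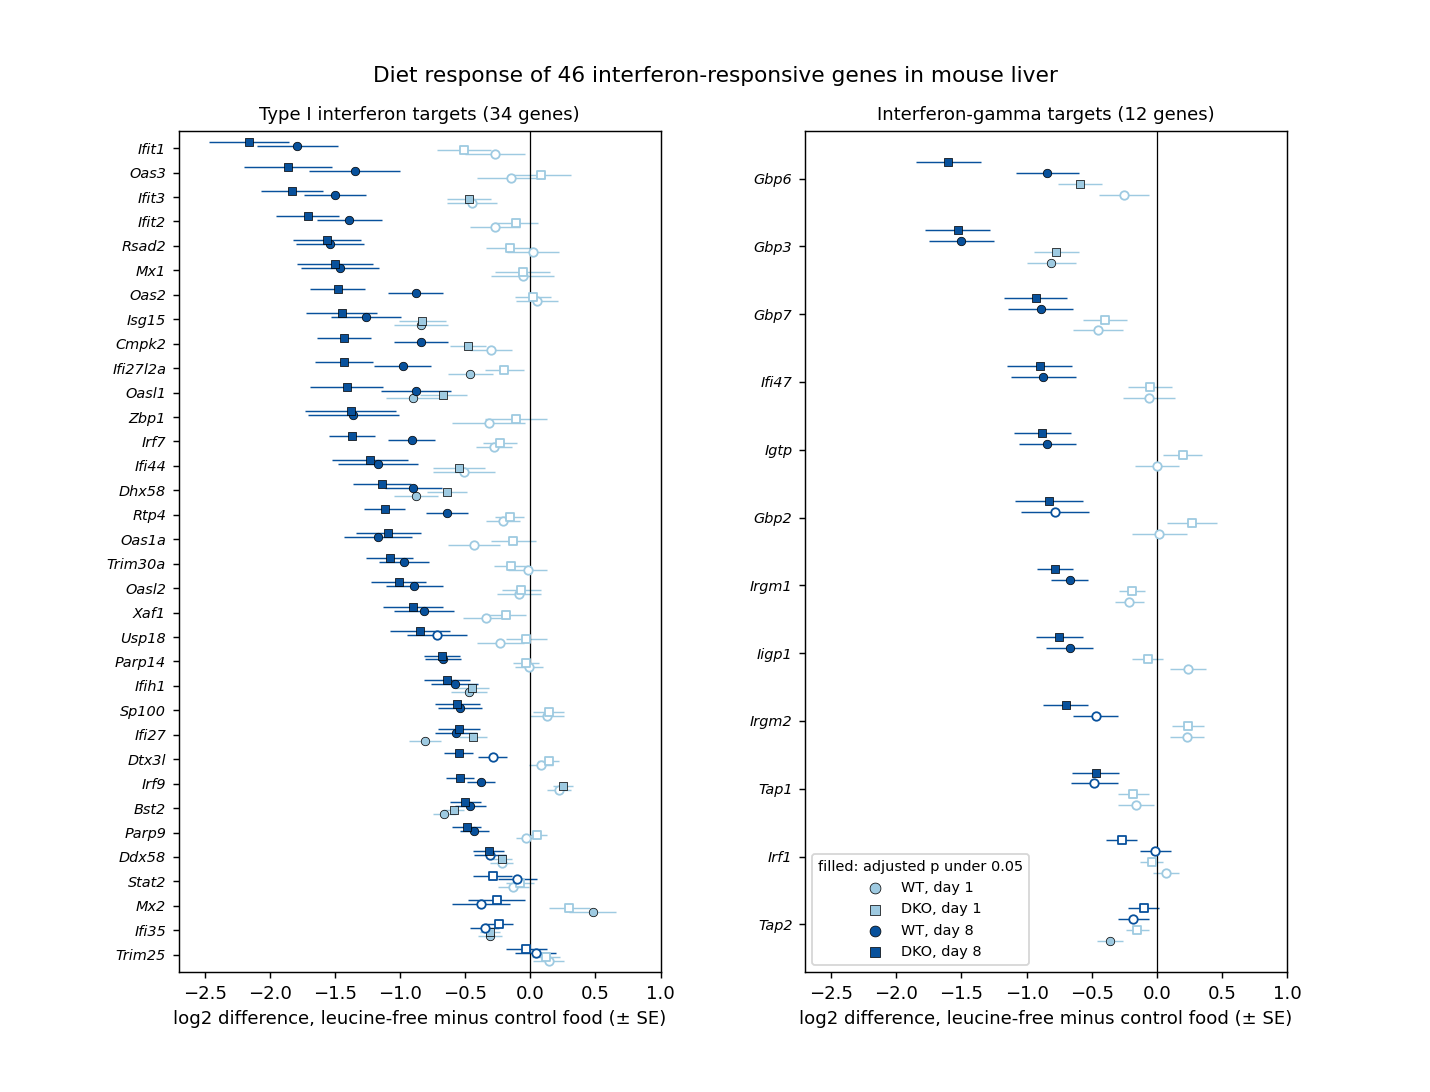
Log2 difference in CPM, leucine-free minus control food, for each of the 34 type I targets (left panel) and 12 interferon-gamma targets (right panel); circles are WT and squares DKO livers, light points day 1 and dark points day 8, bars are ± SE, and filled points have an adjusted p under 0.05. The filled points of day 8, 34 in WT and 40 in DKO livers, all lie left of 0, while most points of day 1 are open.

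Macrophage markers moved with this. The summed level of 15 macrophage markers, none of them at 0, was 782.7 to 1025.2 CPM in WT control and 357.7 to 732.8 CPM in WT leucine-free livers at day 8. In DKO livers the sum was 838.8 to 1092.3 CPM on control and 223.8 to 891.8 CPM on leucine-free food. Of the 15 markers, 5 fell in WT and 12 in DKO livers at day 8, where 2.87% and 9.51% of all genes fell, with medians of -0.74 and -0.88, and at day 1 none fell in either genotype (edgeR), with medians of 0.13 and 0.25. Summed lymphocyte markers were 15.1 to 25.3 CPM against 8.12 to 13.4 CPM in WT livers and 15.5 to 20.8 against 5.75 to 17.9 CPM in DKO livers, with 2 and 1 of 15 called lower, the second below the share of all genes. Plasmacytoid dendritic cell markers were near 0, at 1.98 to 3.77 against 1.04 to 1.57 CPM in WT and 2.06 to 5.45 against 0.677 to 12.8 CPM in DKO livers. Neutrophil markers gave 5.33 to 31.9 against 4.38 to 7.84 CPM in WT livers, with Ly6g and Camp at 0 in every WT leucine-free library of day 8, and 8.06 to 14.1 (median 12.8) against 6.72 to 18.2 CPM (median 14.3) in DKO livers. Endothelial markers gave 710.1 to 883.5 against 519.9 to 789.3 CPM in WT and 783.2 to 966.3 against 553.1 to 992.7 CPM in DKO livers, and none of the 15 was called at day 8 (edgeR). Their part in the fall of the interferon-responsive genes was not tested. In bulk RNA, fewer cells of a type and less RNA per cell cannot be told apart.

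**Figure D2:**
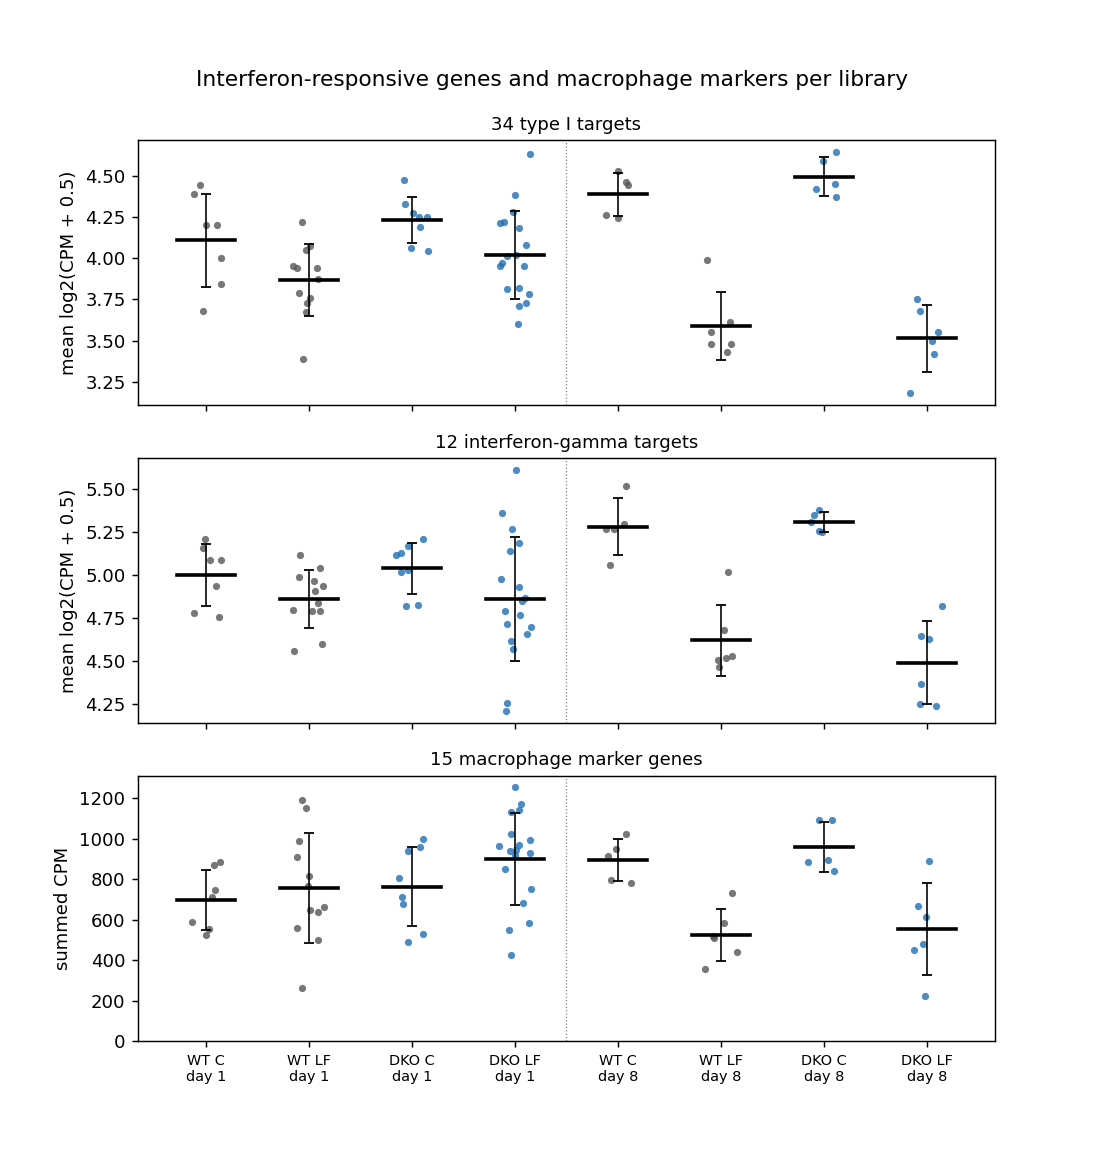
Mean log2(CPM + 0.5) of the 34 type I targets and of the 12 interferon-gamma targets, and summed CPM of 15 macrophage markers, for each of the 67 libraries by group (C, control food; LF, leucine-free food); points are libraries and bars are the mean ± SD. At day 8 the leucine-free libraries of both genotypes lie below all control libraries in both target lists, and the macrophage sum overlaps between diets only in DKO livers.

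Among the transcription factors, Irf7 and Irf9 fell at day 8 and Stat2 and Irf1 did not pass the test. Irf7, which drives the second wave of type I interferon genes, read 44.0, 54.0, 64.1, 37.2 and 49.8 CPM in the 5 WT control livers of day 8 and 21.2 to 41.8 CPM, median 23.8, in the 6 leucine-free ones. The WT groups overlapped in 1 leucine-free liver (log2 difference -0.91 ± 0.18, SE, adjusted p = 0.00100). Its DKO control livers read 56.4, 64.7, 69.5, 62.0 and 58.5 CPM, above the whole leucine-free range of 15.7 to 32.3 CPM (median 22.4).

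Irf9, the DNA-binding partner of STAT2, moved in opposite directions on the 2 days. It rose at day 1 in DKO livers, from 32.8 to 40.0 CPM on control food (median 37.7) to 34.3 to 65.1 CPM on leucine-free food (median 42.6), a log2 difference of 0.25 ± 0.08 with overlapping ranges (adjusted p = 0.0148). At day 8 it fell, from 45.5, 44.5, 48.6, 48.5 and 41.6 CPM to between 26.2 and 37.7 CPM with a median of 32.0, without overlap (-0.54 ± 0.11, adjusted p = 0.000228). WT livers gave 0.22 ± 0.09 at day 1, which did not pass (adjusted p = 0.0689). At day 8 they gave 45.3, 50.3, 54.1, 39.2 and 44.7 CPM against 30.8 to 46.5 CPM, median 33.0 (-0.38 ± 0.11, adjusted p = 0.0299). That WT call was lost without any of 6 of the 11 libraries, namely control replicates 2 and 3 and leucine-free replicates 1, 2, 3 and 5. The highest adjusted p among these was 0.0902, without control replicate 3. The reads of Irf9 are uncertain where it overlaps Rnf31 on the same strand.

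Stat2, by contrast, stood at 112.9, 125.7, 110.0, 100 and 93.2 CPM in WT control livers of day 8 and at 92.4 to 118.6 CPM, median 96.4, in leucine-free ones. The ranges overlapped almost fully (-0.10 ± 0.15, adjusted p = 0.775), and DKO livers gave -0.29 ± 0.15 (adjusted p = 0.173). Irf1, the factor that relays the gamma signal, gave -0.01 ± 0.12 in WT and -0.27 ± 0.12 in DKO livers (adjusted p = 0.968 and 0.103). Its control livers read 38.0, 56.3, 58.2, 54.4 and 50.4 CPM in WT and 51.6, 55.3, 57.1, 57.2 and 46.4 CPM in DKO mice, overlapping the leucine-free ranges of 42.6 to 61.7 (median 48.4) and 34.8 to 58.6 CPM (median 42.5).

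The antiviral effectors held the largest falls. Of 13 such genes 12 fell in each genotype at day 8, with median log2 differences of -1.17 in WT and -1.48 in DKO livers. Mx2, which the annotation lists as a polymorphic pseudogene, was the exception, with -0.38 ± 0.22 and -0.26 ± 0.22. The IFIT proteins bind viral RNA that lacks host marks at its end. Ifit1 (GRCm38 chromosome 19) read 12.2, 19.1, 14.7, 16.3 and 15.1 CPM in WT control livers of day 8 and 3.43 to 7.20 CPM, median 4.15, in leucine-free ones. DKO livers gave 15.2, 13.0, 19.6, 16.4 and 13.7 CPM against 2.31 to 4.96 CPM, median 3.35. Both genotypes were separated without overlap, by -1.79 ± 0.31 and -2.16 ± 0.31 on the log2 scale (adjusted p = 0.000140 and 2.65e-07).

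Ifit3 followed the same course, from 17.3, 24.4, 22.0, 24.4 and 22.3 CPM to between 5.68 and 13.0 CPM (median 6.97) in WT livers. The course in DKO livers was from 20.2, 19.3, 27.3, 24.1 and 19.4 CPM to between 2.51 and 8.48 CPM, with a median of 6.46. The differences were -1.50 ± 0.24 and -1.83 ± 0.24 (adjusted p = 5.83e-05 and 3.72e-08), and no leucine-free liver reached the control range. Ifit2 fell by 1.39 ± 0.25 and 1.71 ± 0.24 on the log2 scale (adjusted p = 0.000260 and 1.89e-07). Reads of the IFIT, OAS, GBP, IRG and TRIM30 families are uncertain in part, since near-identical copies can share them.

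Rsad2 encodes viperin, a radical SAM enzyme that makes a chain-terminating nucleotide. It read 10.9, 13.6, 11.2, 19.2 and 13.8 CPM in WT control livers of day 8, and 3.69 to 7.94 CPM with a median of 4.17 in leucine-free ones. The DKO control livers lay close together at 12.5, 11.1, 14.1, 13.1 and 13.0 CPM, above the leucine-free range of 2.65 to 6.31 CPM (median 3.99). The log2 differences were alike, -1.54 ± 0.26 and -1.56 ± 0.26 (adjusted p = 0.000103 and 5.96e-06). Cmpk2, its neighbour, which makes the nucleotide that viperin uses, fell by 0.84 ± 0.21 in WT and by 1.43 ± 0.21 in DKO livers (adjusted p = 0.00775 and 2.98e-07).

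The oligoadenylate synthetases make the second messenger that activates RNase L. Oas3 read 3.92, 4.13, 5.99, 4.80 and 3.81 CPM in DKO control livers of day 8 and 0.497 to 2.95 CPM, median 0.989, in leucine-free ones, without overlap (-1.86 ± 0.34, adjusted p = 3.75e-05). In WT livers the values were 3.30, 3.89, 3.62, 2.12 and 5.16 CPM against 0.744 to 2.33 CPM, median 1.28, and the lowest control liver lay within the leucine-free range. The WT difference of -1.35 ± 0.35 (adjusted p = 0.0137) lost its call without control replicate 5 (-1.19, adjusted p = 0.0581). Oas2 fell by 0.88 ± 0.21 and 1.48 ± 0.21, Oas1a by 1.17 ± 0.26 and 1.09 ± 0.25, and Oasl2 by 0.89 ± 0.22 and 1.01 ± 0.21 in WT and DKO livers (highest of these adjusted p = 0.00681). Mx1, a dynamin-like GTPase that blocks influenza viruses, read 3.09, 4.46, 4.08, 4.11 and 4.03 CPM in WT control livers and 0.922 to 2.17 CPM, median 1.15, in leucine-free ones. It fell by 1.46 ± 0.30 in WT and 1.50 ± 0.29 in DKO livers (adjusted p = 0.00130 and 9.00e-05) and did not overlap between diets in either.

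**Figure D3:**
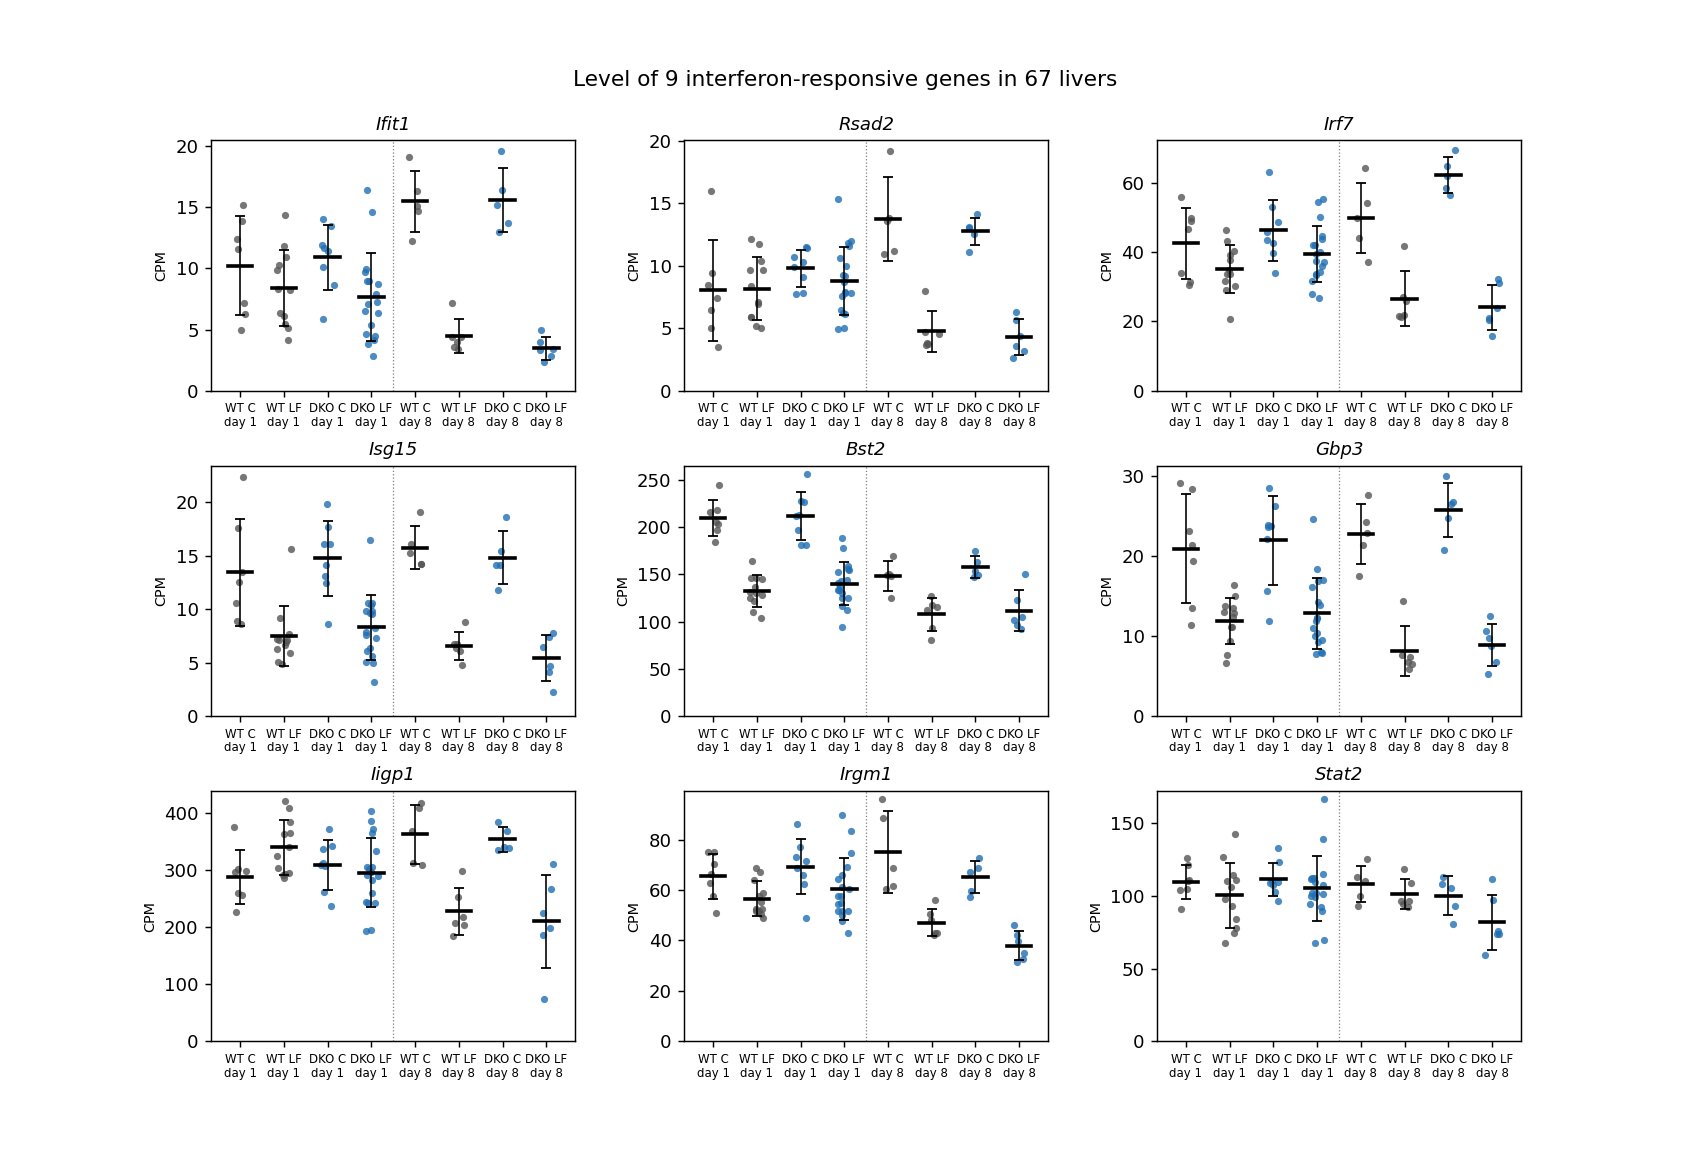
CPM per library of 9 member genes (Ifit1, Rsad2, Irf7, Isg15, Bst2, Gbp3, Iigp1, Irgm1 and Stat2), grouped by genotype, diet (C, control food; LF, leucine-free food) and day; points are libraries and bars are the group mean ± SD. Ifit1 and Rsad2 separate the diets at day 8 and overlap at day 1, Bst2 is lower on leucine-free food on both days, and Stat2 overlaps throughout.

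Of the 4 sensors of foreign nucleic acid, 3 fell in WT and 4 in DKO livers at day 8. Dhx58 (LGP2, a regulator of the RNA sensors RIG-I and MDA5) read 18.1, 17.5, 19.1, 15.4 and 20.9 CPM in WT control livers and 8.02 to 12.5 CPM, median 9.69, in leucine-free ones. DKO livers gave 19.1, 16.8, 21.9, 19.0 and 19.9 CPM against 6.39 to 10.4 CPM, median 8.88. Neither genotype overlapped, and the differences were -0.90 ± 0.22 and -1.14 ± 0.22 (adjusted p = 0.00930 and 0.000101). Zbp1, a sensor of Z-form nucleic acid that starts necroptosis, fell by 1.36 ± 0.35 and 1.38 ± 0.35 (adjusted p = 0.0125 and 0.00252), and its WT call was lost without control replicate 2 (-1.15, adjusted p = 0.0597).

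Ifih1 (MDA5) read 44.7, 42.3, 46.4, 48.1 and 49.7 CPM in WT control livers of day 8 and 26.3 to 36.2 CPM, median 31.6, in leucine-free ones. Although these ranges stood apart, the WT call (-0.58 ± 0.18, adjusted p = 0.0484) was lost without any 1 of 10 of the 11 libraries, all but leucine-free replicate 6, with an adjusted p of at most 0.109. DKO livers gave 50.6, 42.0, 48.8, 45.8 and 49.3 CPM against 18.2 to 36.7 CPM, median 31.3 (-0.64 ± 0.18, adjusted p = 0.00787). Ddx58, which encodes RIG-I, changed least of the sensors. Its DKO livers read 41.5, 40.4, 42.3, 39.4 and 40.8 CPM against 28.9 to 37.7 CPM, median 32.1 (-0.32 ± 0.12, adjusted p = 0.0469), and WT livers gave -0.31 ± 0.12 (adjusted p = 0.119). The DKO call was lost without any 1 of 9 of the 11 libraries, all but leucine-free replicates 3 and 4, with an adjusted p of at most 0.101.

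ISG15, a ubiquitin-like modifier, and the PARP and TRIM proteins are regulators within the response, and 4 of these 7 genes fell in WT and 6 in DKO livers at day 8. Isg15 read 14.2, 19.1, 16.1, 15.2 and 14.2 CPM in WT control livers and 4.75 to 8.82 CPM, median 6.55, in leucine-free ones (-1.26 ± 0.27, adjusted p = 0.00206). In DKO livers it read 14.1, 11.8, 18.6, 15.4 and 14.1 CPM against 2.20 to 7.74 CPM, median 5.57 (-1.45 ± 0.27, adjusted p = 4.13e-05). The diets were apart in both genotypes. Usp18, the protease that removes ISG15 and damps IFNAR signalling, gave -0.72 ± 0.23 in WT (adjusted p = 0.0520) and fell by 0.85 ± 0.23 in DKO livers (adjusted p = 0.00424).

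Parp9, a partner of the ubiquitin ligase DTX3L, read 66.8, 74.1, 66.5, 59.0 and 67.8 CPM in WT control livers of day 8 and 43.4 to 56.0 CPM, median 50.7, in leucine-free ones. Its DKO control livers lay at 60.5, 60.4, 60.3, 65.0 and 64.6 CPM and the leucine-free ones at 34.3 to 53.2 CPM, median 45.6. The fall was 0.43 ± 0.11 and 0.49 ± 0.11 on the log2 scale (adjusted p = 0.00921 and 0.000421), small in size and without overlap. Parp14, a mono-ADP-ribosyl transferase, read 58.6, 73.0, 61.4, 50.9 and 62.0 CPM against 30.7 to 44.0 CPM, median 39.5, in WT livers. It fell by 0.67 ± 0.14 and 0.68 ± 0.14 in WT and DKO livers (adjusted p = 0.00109 and 0.000158). Dtx3l itself gave -0.29 ± 0.11 in WT (adjusted p = 0.111) and fell by 0.55 ± 0.11 in DKO livers (adjusted p = 0.000155). Parp9 and Dtx3l lie on opposite strands with overlapping ends, so their reads are uncertain if strand was not used in counting. Trim25, the ubiquitin ligase of RIG-I, read 98.1, 106.5, 106.6, 84.1 and 114.4 CPM in WT control livers and 98.4 to 113.7 CPM, median 105.4, in leucine-free ones. It gave 0.04 ± 0.16 in WT and -0.03 ± 0.16 in DKO livers (adjusted p = 0.932 and 0.929).

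Of 7 other induced proteins 6 fell in each genotype at day 8. Ifi27, a small membrane protein, read 76.3, 85.0, 98.8, 53.3 and 86.0 CPM in WT control livers and 43.9 to 64.1 CPM, median 55.0, in leucine-free ones, with 1 control liver inside the leucine-free range. The WT difference of -0.57 ± 0.16 (adjusted p = 0.0208) was lost without control replicate 3 or leucine-free replicate 1 or 5, with an adjusted p of at most 0.0760. In DKO livers the values were 99.9, 85.5, 90.9, 90.6 and 99.8 CPM against 46.9 to 89.2 CPM, median 60.3, again with overlap (-0.55 ± 0.16, adjusted p = 0.00849). Ifi35, a binding partner of other interferon-induced proteins, gave -0.35 ± 0.11 and -0.24 ± 0.11 and passed in neither genotype (adjusted p = 0.0575 and 0.132).

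Rtp4, a chaperone of receptor transport to the cell surface, was the most even of this group in DKO control livers. It read 23.8, 24.3, 24.1, 24.1 and 21.9 CPM there and 9.44 to 12.8 CPM, median 10.6, on leucine-free food (-1.12 ± 0.16, adjusted p = 1.89e-07). WT livers gave 18.8, 24.0, 20.8, 15.4 and 22.6 CPM against 11.7 to 15.5 CPM, median 12.8, which overlapped narrowly (-0.64 ± 0.16, adjusted p = 0.0101). Ifi27l2a fell by 0.98 ± 0.22 and 1.43 ± 0.22, and Ifi44 by 1.17 ± 0.31 and 1.23 ± 0.29 in WT and DKO livers (highest of these adjusted p = 0.0135). Xaf1 and Sp100, a component of nuclear bodies, fell by 0.82 ± 0.23 and 0.54 ± 0.17 in WT livers (adjusted p = 0.0248 and 0.0469). Those calls were lost without any of 5 libraries for Xaf1 (control replicates 2 and 3, leucine-free replicates 1, 3 and 4; adjusted p of at most 0.0657) and of 7 for Sp100 (control replicates 2, 4 and 5, leucine-free replicates 1 to 4; at most 0.111).

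The interferon-inducible GTPases of this role, all of them listed here as gamma targets, attack the vacuoles of intracellular parasites and bacteria. Of 9 such genes 7 fell in WT and all 9 in DKO livers at day 8, with medians of -0.84 and -0.88. Iigp1, which coats parasite vacuoles and is the most abundant of the 9, read 408.4, 417.5, 308.3, 311.6 and 368.1 CPM in WT control livers and 184.7 to 299.2 CPM, median 212.4, in leucine-free ones. For DKO livers the values were 336.0, 341.3, 368.3, 337.9 and 384.6 CPM against 73.8 to 311.3 CPM, median 211.1. The groups did not overlap, although the DKO leucine-free livers spread widely (-0.67 ± 0.18 and -0.75 ± 0.18, adjusted p = 0.0139 and 0.00114). The DKO call held without any 1 library of day 8 but was lost under some other alternative.

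Irgm1, a regulator of the other IRG proteins, read 60.2, 88.7, 96.0, 61.4 and 68.7 CPM in WT control livers and 42.1 to 56.1 CPM, median 45.6, in leucine-free ones. The DKO livers gave 67, 57.4, 72.5, 68.6 and 59.7 CPM against 31.6 to 46 CPM, median 37.4. Both were apart, by -0.67 ± 0.14 and -0.78 ± 0.14 (adjusted p = 0.00110 and 1.46e-05). Irgm2 gave 75.6, 102.5, 78.6, 71.8 and 89.5 CPM against 52.3 to 77.0 CPM, median 57.4, in WT livers, which overlapped and did not pass (-0.47 ± 0.17, adjusted p = 0.0825), and fell by 0.70 ± 0.17 in DKO livers (adjusted p = 0.00128). Igtp fell by 0.84 ± 0.22 and 0.88 ± 0.22 (adjusted p = 0.0134 and 0.00211). Its WT call was lost without control replicate 2, the highest control liver at 81.6 CPM (-0.68, adjusted p = 0.0738). Igtp and Irgm2 overlap on the same strand, so their reads are uncertain.

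The guanylate-binding proteins are large GTPases of the same kind. Gbp3 read 17.5, 24.2, 22.9, 21.4 and 27.6 CPM in WT control livers of day 8 and 5.82 to 14.3 CPM, median 7.04, in leucine-free ones. DKO livers gave 24.7, 20.7, 26.7, 30.0 and 26.5 CPM against 5.24 to 12.5 CPM, median 9.21. The diets were apart by -1.50 ± 0.25 and -1.53 ± 0.25 (adjusted p = 9.20e-05 and 3.60e-06). Gbp6 fell by 0.84 ± 0.24 in WT and 1.60 ± 0.25 in DKO livers, Gbp7 by 0.89 ± 0.25 and 0.93 ± 0.24, and Ifi47, an IRG protein, by 0.87 ± 0.25 and 0.90 ± 0.25 (highest of these adjusted p = 0.0278). The WT calls of Gbp6, Gbp7 and Ifi47 were lost without any of 5, 2 and 4 libraries. These were control replicate 5 and leucine-free replicates 1 to 4 for Gbp6, control replicate 2 and leucine-free replicate 3 for Gbp7, and control replicate 2 and leucine-free replicates 2, 3 and 5 for Ifi47. The highest adjusted p was 0.0668, 0.0671 and 0.104.

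Of the peptide transporter subunits Tap1 and Tap2, which load MHC class I, Tap1 was called lower at day 8 in DKO livers and Tap2 in neither genotype. Tap1 read 29.4, 36.0, 37.3, 34.6 and 29.6 CPM in WT control livers of day 8 and 18.5 to 28.9 CPM, median 23.3, in leucine-free ones, ranges that stood apart although the test did not pass (-0.48 ± 0.18, adjusted p = 0.105). In DKO livers it read 38.3, 31.6, 36.1, 34.2 and 33.2 CPM against 16.6 to 31.1 CPM, median 25.0 (-0.47 ± 0.18, adjusted p = 0.0487). That call was lost without any of 9 of the 11 DKO libraries, with an adjusted p of at most 0.140. Tap2 gave -0.18 ± 0.12 and -0.10 ± 0.12 (adjusted p = 0.430 and 0.604), with WT ranges of 31.2 to 42.2 CPM on control and 29.9 to 36.1 CPM on leucine-free food.

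After 1 day without leucine far fewer members had changed. In WT livers 10 fell and 1 rose, where 11.2% and 8.28% of all genes fell and rose, and in DKO livers 13 fell and 1 rose, where 13.0% and 10.5% of all genes did. The medians of the 46 were -0.22 and -0.15, against 0.01 and 0.02 over all genes. By family, 8 type I targets fell and 1 rose in WT and 11 fell and 1 rose in DKO livers, while 2 of the 12 gamma targets fell in each. The mean log2(CPM + 0.5) of the type I targets overlapped between diets at day 1, with 3.68 to 4.44 against 3.39 to 4.22 in WT and 4.04 to 4.47 against 3.60 to 4.63 in DKO livers.

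A set of 8 genes fell at day 1 in both genotypes, namely Isg15, Oasl1, Ifih1, Dhx58, Ifi27, Ifi35, Bst2 and Gbp3. All but Ifi35 were also called lower in both genotypes at day 8. The share of all genes called lower at day 1 in both genotypes was not counted. Bst2 was the clearest, with 184.4 to 244.4 CPM (median 205.2) in 7 WT control livers and 103.8 to 164.3 CPM (median 130.7) in 12 leucine-free ones, without overlap (-0.66 ± 0.09, adjusted p = 1.26e-07). It was the 1 member with WT ranges apart on the lower side at day 1, where 1.37% of all genes were. In DKO livers Bst2 read 180.6 to 256.2 CPM (median 212.5) against 94.3 to 188.7 CPM (median 138.8), which overlapped narrowly (-0.59 ± 0.08, adjusted p = 3.93e-08). At day 8 the difference was -0.46 ± 0.12 in WT livers (148.2, 150.3, 169.2, 125.2 and 149.1 against 80.5 to 126.8 CPM, median 113.8; adjusted p = 0.0135). The WT call of day 8 was lost without leucine-free replicate 5 (-0.39, adjusted p = 0.0516). DKO livers gave -0.50 ± 0.12 at day 8 (154.0, 163.3, 174.9, 147.6 and 149.0 against 92.0 to 149.9 CPM, median 103.1; adjusted p = 0.00139), with overlap in both genotypes.

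Isg15 went from 8.61 to 22.4 CPM (median 12.5) in WT control livers of day 1 to 4.90 to 15.6 CPM (median 7.01) in leucine-free ones, and from 8.60 to 19.8 (median 15.1) to 3.19 to 16.5 CPM (median 8.06) in DKO livers. The ranges overlapped, and the differences were -0.84 ± 0.21 and -0.83 ± 0.18 (adjusted p = 0.00191 and 0.000294). Gbp3 fell by 0.81 ± 0.19 and 0.77 ± 0.17 at day 1, from medians of 21.3 and 23.7 to 12.6 and 12.0 CPM (adjusted p = 0.00111 and 0.000276). Its ranges were 11.3 to 29.1 against 6.60 to 16.4 CPM in WT and 11.8 to 28.5 against 7.78 to 24.6 CPM in DKO livers, overlapping in both.

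Dhx58 fell from 9.50 to 23.5 CPM (median 16.4) to 6.03 to 17.7 CPM (median 7.27) in WT livers of day 1, a difference of -0.88 ± 0.17 (adjusted p = 0.000112), and by 0.64 ± 0.15 in DKO livers (adjusted p = 0.000976). Oasl1, an OAS-like protein reported in mouse to hold back translation of Irf7, fell from a median of 18.3 to 8.79 CPM in WT livers, with ranges of 8.96 to 29.5 and 5.99 to 18.5 CPM (-0.90 ± 0.21, adjusted p = 0.00103). DKO livers gave -0.67 ± 0.18 (adjusted p = 0.00445), with 7.85 to 24.4 against 4.33 to 20.2 CPM. At day 8 Oasl1 fell by 0.88 ± 0.27 in WT livers, from 11.8, 17.5, 29.6, 15.1 and 18.7 CPM to between 7.89 and 12.3 CPM (median 9.58; adjusted p = 0.0419). Leaving out any of 7 of the 11 libraries ended that call, namely control replicates 2, 3 and 5 and leucine-free replicates 1 to 4 (highest adjusted p = 0.180, without control replicate 3). DKO livers gave -1.41 ± 0.28 at day 8 (adjusted p = 9.75e-05).

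Ifi27 fell by 0.81 ± 0.12 in WT livers of day 1, from 63.6 to 155.1 CPM (median 124.0) to 53.8 to 89.5 CPM (median 67), with some overlap (adjusted p = 7.77e-07), and by 0.44 ± 0.11 in DKO livers (adjusted p = 0.00170). Ifih1 gave -0.47 ± 0.14 and -0.45 ± 0.13, and Ifi35 gave -0.31 ± 0.09 in WT and -0.31 ± 0.08 in DKO livers. The WT call of Ifih1 was lost when only the groups compared were fitted (adjusted p = 0.0748). In 1 genotype alone were called Ifi27l2a and Tap2 (WT) and Ifit3, Ddx58, Ifi44, Cmpk2 and Gbp6 (DKO). The difference in diet effect between genotypes passed for none of them. With no filter on low counts the calls of Ifi27l2a, Ifit3, Ddx58 and Ifi44 were lost. With the mouse number as a block these calls and that of Cmpk2 were lost. Over all alternatives that ended these calls the highest adjusted p was 0.202, for Ddx58. The rises were Mx2 in WT livers, from 3.79 to 6.97 CPM (median 6.16) to 4.81 to 13.9 CPM (median 7.23; 0.48 ± 0.18, adjusted p = 0.0432), and Irf9 in DKO livers. The Mx2 call was lost under 5 alternatives, namely voom, total counts, no filter, only the groups compared and the 3 libraries of high residual left out, with an adjusted p of at most 0.171.

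Ifit1 and Rsad2, with the largest WT falls of day 8, were not called at day 1 in either genotype. Ifit1 stood at 4.97 to 15.2 CPM (median 11.6) in WT control livers of day 1 and 4.15 to 14.4 CPM (median 8.28) in leucine-free ones, and at 5.90 to 14.0 (median 11.5) and 2.82 to 16.4 CPM (median 7.17) in DKO livers. The groups overlapped and the test did not pass (-0.27 ± 0.23 and -0.51 ± 0.21, adjusted p = 0.458 and 0.0647). Rsad2 gave 0.02 ± 0.20 in WT and -0.16 ± 0.18 in DKO livers at day 1 (adjusted p = 0.951 and 0.560). In all, 22 members fell at day 8 in both genotypes and were not called lower at day 1 in either. The share of all genes with this pattern was not counted.

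Whether the diet effect itself differed between days was tested as an interaction, day 8 minus day 1. It was more negative at day 8 for 9 members in WT livers, where 0.781% of all genes were called in that direction, and for 26 in DKO livers, where 3.55% were. None was called in the other direction, where 0.863% and 5.29% of all genes were (edgeR). The 9 WT genes were Ifit1, Ifit2, Irf9, Oas2, Rsad2, Mx1, Parp14, Trim30a and Iigp1, and all 9 were among the 26 of DKO livers. Type I targets made up 8 of the 9 and 20 of the 26, and gamma targets 1 and 6. For Ifit1 the interaction was -1.52 ± 0.39 in WT and -1.65 ± 0.38 in DKO livers (adjusted p = 0.0286 and 0.00249), and for Rsad2 it was -1.56 ± 0.33 and -1.40 ± 0.32 (adjusted p = 0.00739 and 0.00216). The WT count was sensitive to single livers: it was 3 without control replicate 2 or leucine-free replicate 1, and 5 without control replicate 4 or 5 or leucine-free replicate 3. Irf9 and Rsad2 were called without any 1 WT library of day 8, whereas Ifit1, Ifit2, Oas2, Mx1, Parp14, Trim30a and Iigp1 were not, with a highest adjusted p of 0.117 for Oas2 without leucine-free replicate 1. In DKO livers Iigp1, Oas1a and Zbp1 lost their calls without some library of day 8, with a highest adjusted p of 0.100 for Oas1a without control replicate 4. The DKO calls of Sp100, Gbp2 and Gbp6 were lost under some other alternative.

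None of the 8 genes that fell at day 1 in both genotypes was called in this interaction. The 8 were picked by their day 1 diet effect, which the interaction subtracts, so a more negative value was made less likely beforehand. Their lack of a call therefore cannot mark them as a separate pattern. For Isg15 the interaction was -0.42 ± 0.34 and -0.62 ± 0.33 (adjusted p = 0.598 and 0.242), and for Bst2 it was 0.20 ± 0.15 and 0.09 ± 0.15 (adjusted p = 0.560 and 0.766). In the promoter windows, an ISRE core stood in 4 of the 6 genes of that set of 8 that had a window (Isg15, Ifih1, Bst2 and Gbp3). It stood in 8 of the 15 with a window among the 22 called lower at day 8 in both genotypes and at day 1 in neither. Among these were Ifit1, Rsad2, Oas3, Igtp and Gbp7, and Gbp7 was not called in the interaction in either genotype. Among the 6 members not called lower at day 8 in either genotype, Stat2 was the 1 of 4 with a window that held it. The element in the sequences printed above was thus present in genes of each pattern of calls, which is not a tested difference between days.

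**Figure D4:**
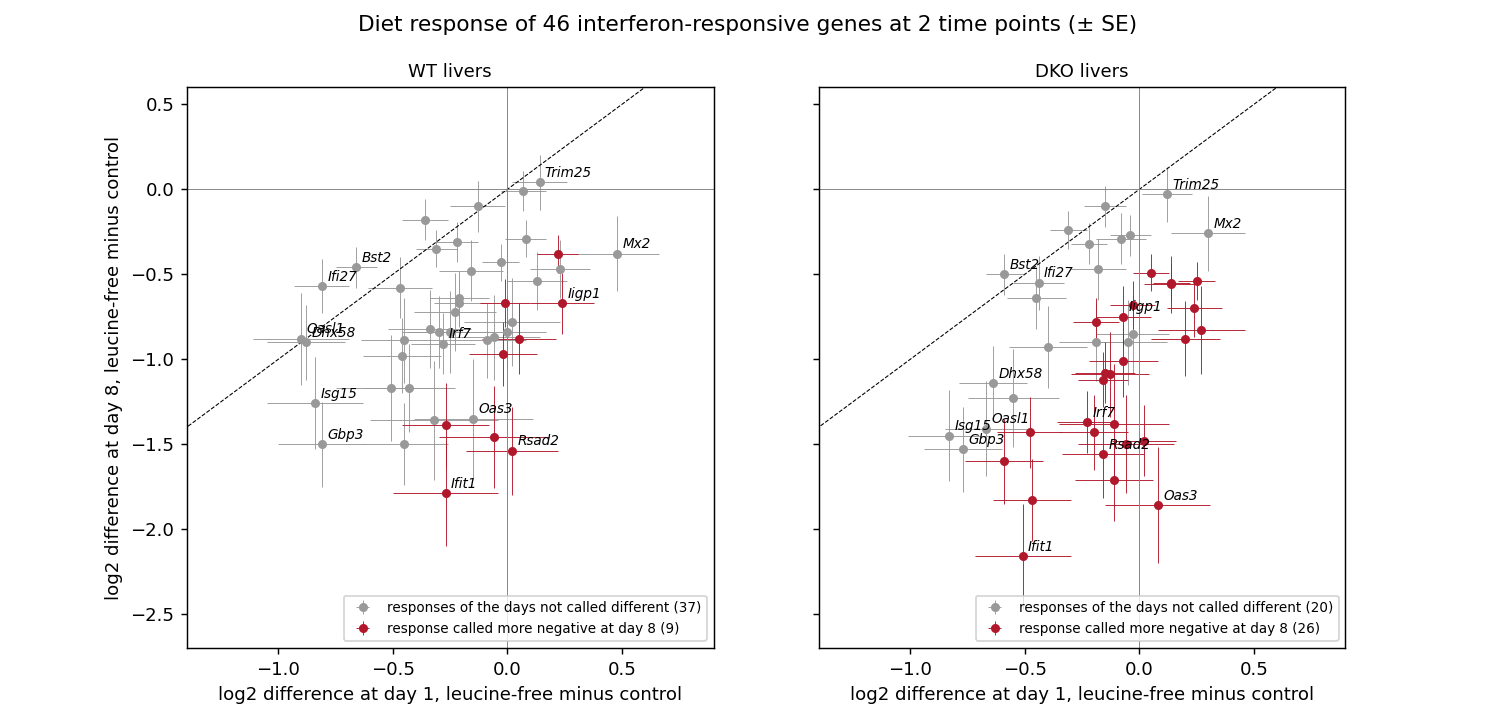
Diet effect at day 1 (x axis) against diet effect at day 8 (y axis), both as log2 difference in CPM of leucine-free minus control food ± SE, for the 46 genes in WT and in DKO livers; red points have a diet effect that differed between days (adjusted p under 0.05). The 9 red points in WT and 26 in DKO livers lie below the diagonal, while Isg15, Bst2 and Gbp3 are lower on both days.

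Levels on control food also differed between days, which bears on the comparison of days. The median log2 difference of the 46, day 8 minus day 1, was 0.29 in WT and 0.30 in DKO livers, with 39 and 35 members above 0, against medians of 0.00 and 0.01 over all genes. The median of the diet by day difference was -0.60 and -0.75. In WT livers 2 were higher and 2 lower at day 8 than at day 1, where 1.65% and 2.79% of all genes were. The log2 difference, day 8 minus day 1, was 0.60 for Irgm2, 0.37 for Irf9, -0.50 for Bst2 and -0.55 for Ifi27. Without 1 day 8 control liver the calls of Irgm2 (adjusted p = 0.0885 without replicate 2), Irf9 (0.0981 without replicate 3) and Ifi27 (0.142 without replicate 4) were lost, and that of Bst2 was not. In DKO livers 8 were higher and 1 lower, where 7.42% and 9.62% of all genes were. At an unadjusted p under 0.05, 15 members were higher in WT and 13 in DKO livers, and voom called 12 and 20. The DKO difference was 0.85 for Mx1, 0.73 for Irgm2, 0.64 for Ifit2 and -0.42 for Bst2. Of these, Mx1 lost its call without replicate 3 (adjusted p = 0.0670) and Ifit2 without any of 4 of the 5 livers (at most 0.0990). The WT count was 2 without replicate 1 and 1 without replicate 2, and the DKO count was 4 without replicate 3 or 4 and 5 without replicate 5. The part of these shifts in the interaction of diet and day was not tested.

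The genotypes were compared on the same food and day. On control food no member was called at day 1 or at day 8, where 0.881% and 0.0532% of all genes were called in either direction (edgeR; 1 member on each day had an unadjusted p under 0.05, and DESeq2 and limma with voom called none). On leucine-free food of day 1, 1 member was higher in DKO livers, where 1.87% of all genes were. This was Ifi27l2a, with a log2 difference of 0.52 ± 0.14, DKO minus WT (adjusted p = 0.0191). It read 2.21 to 6.28 CPM (median 4.84) in 12 WT livers and 4.41 to 9.66 CPM (median 6.44) in 18 DKO livers, and the groups overlapped. The Ifi27l2a call was lost with the mouse number as a block (edgeR, adjusted p = 0.0560). At an unadjusted p under 0.05 there were 8 members, DESeq2 called 2 and voom 4. On leucine-free food of day 8 none was called, where 2.06% of all genes were (edgeR; 5 had an unadjusted p under 0.05, and DESeq2 and voom called none).

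The interaction of diet and genotype called no member at day 1 or day 8, where 0.373% and 0.0414% of all genes were called. At an unadjusted p under 0.05 there were 1 and 4 members, and DESeq2 and voom called none. The falls of the 6 genes called at day 8 in DKO livers and not in WT livers (Usp18, Ddx58, Dtx3l, Irgm2, Gbp2 and Tap1) are therefore not shown to differ between genotypes. The libraries of a group also did not vary alike. Mean squared residuals of DKO libraries at day 8 lay between 0.103 and 0.141 on control food but between 0.192 and 0.431 on leucine-free food, so a shared estimate of the spread can give too small a p in the second.

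Within groups the members tended to be high or low together in single livers. In WT leucine-free livers of day 8, replicate 6 was the highest of 6 for 39 of the 46 members. Its macrophage marker sum of 582.1 CPM was above the group median of 514.8 CPM and below the highest, 732.8 CPM. In DKO leucine-free livers of day 8, replicate 1 was the lowest of 6 for 25 members. Its macrophage sum of 223.8, lymphocyte sum of 5.75, endothelial sum of 553.1 and plasmacytoid dendritic sum of 0.677 CPM were the lowest of the group. Its neutrophil sum of 7.53 CPM was not, with 6.72 CPM in replicate 4. In DKO leucine-free livers of day 1, replicate 3 was the highest of 18 for 28 members. Its plasmacytoid dendritic cell marker sum of 47.1 CPM and neutrophil marker sum of 35.6 CPM were the highest of that group. In the same group replicate 13 had the highest Igtp and Irgm2, at 108.9 and 114.5 CPM against medians of 39.9 and 60.5 CPM. The part of these marker sums in the differences among livers was not tested.

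Genes around the members in the pathway were taken from lists chosen with earlier results of these data known. Among 14 receptor and JAK-STAT genes, 4 rose and none fell in WT livers at day 1, and 2 rose in DKO livers, where 8.28% and 10.5% of all genes rose. Ifnar2, a chain of the type I receptor, rose from 39.8 ± 5.28 (SD, n = 7) to 66.5 ± 8.67 CPM (n = 12) in WT livers (0.74 ± 0.08, adjusted p = 1.13e-11). The rise in DKO livers was from 41.1 ± 3.22 (n = 8) to 63.9 ± 6.77 CPM (n = 18) (0.64 ± 0.07, adjusted p = 1.21e-11). Ifngr1, of the gamma receptor, rose by 0.36 in WT livers and Pias1, an inhibitor of STAT signalling, by 0.24 (adjusted p = 0.0111 and 0.00848). At day 8 Ifnar2 did not pass, and its diet effect at day 8 minus that at day 1 was -0.65 in WT and -0.46 in DKO livers (adjusted p = 0.00209 and 0.00561).

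Among 16 genes that sense nucleic acid upstream of interferon, 5 fell in WT livers at day 8, and 8 fell and 1 rose in DKO livers, where 2.87% and 9.51% of all genes fell. Tlr7, an endosomal RNA receptor, fell by 1.43 ± 0.33 in WT and 1.41 ± 0.32 in DKO livers (adjusted p = 0.00390 and 0.000655), from means of 3.09 and 3.08 to 1.20 and 1.15 CPM. Irf5, a factor that works below such receptors, fell by 1.10 ± 0.22 and 0.92 ± 0.22 (adjusted p = 0.000865 and 0.00142), and Unc93b1, which carries them to endosomes, by 0.42 ± 0.10 and 0.52 ± 0.10 (adjusted p = 0.00431 and 5.03e-05). At day 1, 3 of the 16 fell in WT livers, and 2 fell and 1 rose in DKO livers, near the 11.2% and 13.0% of all genes that fell.

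Of 67 further interferon-induced genes outside the 46, 32 fell in WT and 45 in DKO livers at day 8, with medians of -0.68 and -0.71, and none rose (edgeR). Of all genes 2.87% and 9.51% fell. At day 1 the counts were 12 lower in WT, and 15 lower and 2 higher in DKO livers, where 11.2% and 13.0% of all genes were lower and 10.5% higher in DKO livers. Ifit3b, a close copy of Ifit3, went from 6.18 ± 1.36 (SD, n = 5) to 2.08 ± 0.650 CPM (n = 6) in WT livers of day 8 (-1.58 ± 0.27, adjusted p = 9.90e-05). In DKO livers it went from 6.25 ± 1.14 to 1.49 ± 0.486 CPM (-2.05 ± 0.27, adjusted p = 2.82e-08). Gbp10 fell in DKO livers from 13.9 ± 2.75 to 1.74 ± 0.561 CPM (-2.99 ± 0.42, adjusted p = 1.48e-07), and Rnf213, a giant ubiquitin ligase, fell in WT livers from 135.3 ± 11.4 to 80.3 ± 8.83 CPM (-0.75, adjusted p = 0.000347). The immunoproteasome activators Psme1 and Psme2 fell at day 1, by 0.37 each in WT and by 0.33 and 0.28 in DKO livers (highest of these adjusted p = 0.000168).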

How the data were processed

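The authors deposited a file of whole-number counts for each sample, with Ensembl genes as rows, and these were joined here. RNA came from frozen liver by miRNeasy extraction and went into directional NEBNext Ultra II libraries, per the labels' protocols. Among the tools in the submitters' processing notes are STAR 2.7.1a, featureCounts 2.0.1 and DESeq2 1.26.0, with GRCm38 and mm10 as builds. The strand setting was not given in the sources used here. Symbols and overlaps came from GENCODE M21, which matched all 55450 identifiers. Replicates all differed by more than sampling noise (lowest chi-square per degree of freedom 16.9).

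Counts were scaled by TMM and fitted with edgeR 4.0.16 (R 4.3.3), robust quasi-likelihood, as 8 group means over 67 libraries; the fit was tested on simulated data. After edgeR's filter on low counts 16908 genes remained (38542 removed), and p-values were adjusted over those kept within each of 14 comparisons. CPM is the count divided by the TMM-scaled library size. Errors of log2 differences are standard errors (SE), and other errors are SD. Ranges are over libraries and cover mice and counting together, and without molecular identifiers reads need not be separate molecules. Alternatives were DESeq2 1.42.0, voom of limma 3.58.1, other scalings and filters, only the groups compared, the mouse number as a block, and libraries left out; the older edgeR dispersion was added after seeing the data. Leave-one-out runs covered day 8, whose groups have 5 or 6 livers.

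The members and lists were chosen with earlier results of these data known. Most genes given by library are the 3 most abundant of each role and, per comparison, the 3 called members with the largest rise and fall. Further members were added to complete a role. Dtx3l, Ifi35, Sp100 and Ifit2 met this rule but are given as log2 differences only, and Parp14 and Rtp4 are given by library outside it. From the other lists, values are for called genes with the smallest adjusted p. A gene of the receptor and JAK-STAT list is not reported here and is not in its counts.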

Additional observations from a re-analysis of the deposited data

Results flagged for a closer look

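Single livers that stood far from the rest of their group were found for 20 of 276 combinations of gene and group examined, in groups of 5 to 8 livers, where the critical value used marks about 1 in 20 groups by chance if values are independent, and values of members in the same liver are not. WT leucine-free replicate 6 of day 8 was the high liver in 10 of the 20. It read 7.20 CPM for Ifit1 (group median 4.15), 13.0 for Ifit3 (6.97), 41.8 for Irf7 (23.8), 12.3 for Usp18 (7.43) and 7.94 for Rsad2 (4.17). It also read 44.5 CPM for Ddx58 (35.3), 5.75 for Ifi44 (2.38), 9.65 for Xaf1 (5.76), 11.7 for Gbp2 (6.81) and 14.3 for Gbp3 (7.04).

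The other such values were spread over groups. In DKO livers of day 8, control replicate 3 read 23.6 CPM for Usp18 (group median 14.1) and control replicate 5 read 21.9 for Rtp4 (24.1). Among DKO leucine-free livers of day 8, replicate 6 read 2.95 CPM for Oas3 (0.989) and replicate 1 read 3.13 for Trim30a (6.95). In DKO control livers of day 1, replicate 5 read 33.8 CPM for Ifih1 (49.6) and 27.6 for Tap2 (37.6), replicate 3 read 11.1 for Ifi27l2a (7.00), and replicate 1 read 67.9 for Parp14 (52.7) and 48.7 for Igtp (35.0). WT control replicate 6 of day 1 read 5.41 CPM for Gbp2 (9.21).

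The diet effect differed between day 1 and day 8 by a test of the difference itself (edgeR interaction, adjusted p under 0.05). In WT livers the log2 difference of the diet effects, day 8 minus day 1, was -1.52 for Ifit1, -1.12 for Ifit2, -0.60 for Irf9, -0.93 for Oas2, -1.56 for Rsad2, -1.39 for Mx1, -0.66 for Parp14, -0.96 for Trim30a and -0.91 for Iigp1. In DKO livers it was -1.65 for Ifit1, -1.60 for Ifit2, -1.37 for Ifit3, -1.14 for Irf7, -0.79 for Irf9, -0.96 for Oas1a, -1.50 for Oas2, -1.94 for Oas3, -0.93 for Oasl2, -1.40 for Rsad2, -1.44 for Mx1, -1.23 for Ifi27l2a and -0.96 for Rtp4. The remaining DKO values were -1.27 for Zbp1, -0.55 for Parp9, -0.64 for Parp14, -0.69 for Dtx3l, -0.96 for Cmpk2, -0.70 for Sp100, -0.93 for Trim30a, -1.08 for Igtp, -0.59 for Irgm1, -0.94 for Irgm2, -1.10 for Gbp2, -1.01 for Gbp6 and -0.68 for Iigp1.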

How the results depend on the processing

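Across the alternatives run, no call of a member changed direction. Of the 34 WT members that fell at day 8, 21 were called under every alternative, and of the 40 in DKO livers 37 were (not Ddx58, Tap1 and Iigp1). At day 1 these were 8 of 11 in WT (not Ifih1, Ifi27l2a and Mx2) and 10 of 14 in DKO livers (not Ifit3, Ddx58, Ifi44 and Cmpk2). For the interaction of diet and day they were 2 of 9 in WT and 20 of 26 in DKO livers. With 1 library of day 8 left out in turn, the count of members called was 25 to 37 for diet in WT and 38 to 40 for diet in DKO livers of day 8. It was 3 to 13 and 23 to 27 for the interaction of diet and day in WT and DKO livers. For the day effect on control food it was 1 to 4 in WT and 4 to 7 in DKO livers, and it stayed at 0 for genotype and for diet by genotype at day 8. For genotype on leucine-free food of day 1 (1 member called) the count was 2 with DESeq2, with total counts, with only the groups compared and without the library that has no Xist counts (DKO leucine-free replicate 1 of day 1). It was 4 with voom, 3 without the 3 libraries of high residual (on leucine-free food, WT replicates 11 and 12 at day 1 and DKO replicate 6 at day 8), and 0 with the mouse number as a replicate block, where Ifi27l2a had an adjusted p of 0.0560. The interaction of diet and day in WT livers (9 members) had 5 with no filter. The day effect on control food had 12 with voom and 2 with no filter in WT livers (4 members), and 20 with voom, 17 with only the groups compared and 5 with the replicate block in DKO livers (9 members). The labels do not say that equal mouse numbers pair livers, so the numbers were taken as names. Correlations of same-numbered libraries ran from -0.169 to 0.235. Libraries of different numbers were not correlated beside them, so these values cannot decide whether livers are paired. With the block the other counts were 13 and 12 for diet at day 1, 35 and 40 at day 8, 9 and 22 for diet by day, and 5 for the WT day effect. The cause of these shifts was not tested. The 5 or 6 livers of a day 8 group limit what can be seen there.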
